A study of Mus musculus with 24 samples.

Results

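Trp53, Mdm2, Mdm4 and Wrap53 were examined in 24 RNA-seq libraries from 8 mouse astrocyte lines, with 3 libraries per line. The genes were taken by name, as Trp53 itself, the pair of genes best known for holding p53 protein in check, and the gene that starts beside Trp53 on the opposite strand. All 4 were found among the 14427 genes of the deposited count table, and all 4 passed the filter on low counts, which kept every gene of that table. The question was whether the transcripts of Mdm2, Mdm4 and Wrap53 followed the dose of mutant Trp53 from line to line.

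The lines came from C57BL/6 cortical astrocytes taken at postnatal day 1, with 1 primary culture named per sex, and RNA was made at passages 10 to 15. Cells of several pups of a sex were combined, and these pups carried 1 floxed and 1 deleted Trp53 allele. In the mutant lines a retrovirus carrying Trp53 with the R172H, Y202C or Y217C substitution and eGFP was added, and eGFP-positive cells were sorted. All 8 lines, p53 KO included, then received a Cre lentivirus and puromycin selection, so the floxed allele was removed in the mutants and the controls alike. Mutant lines are named p53 R172H, p53 Y202C and p53 Y217C and were each compared with the p53 KO line of the same culture. The p53 KO lines received neither the retrovirus nor the sort, so the mutant protein and those steps cannot be told apart. No library of cells with wild-type p53 was analysed here. The 3 libraries of a line stand for separate thaws and platings of 1 pool of cells, so p-values measure the spread within a line, and sex and culture cannot be told apart.

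p53 is a transcription factor that stops the cell cycle or starts cell death after damage to DNA. Mdm2 is a ubiquitin ligase that binds p53 and sends it to the proteasome, and wild-type p53 in turn switches on the Mdm2 gene, which closes a feedback loop. Mdm4 is a relative of Mdm2 that covers the activation domain of p53 and forms a complex with Mdm2. Wrap53 codes for a WD40 repeat protein that guides telomerase RNA to Cajal bodies, and in human cells an antisense transcript of this gene was described as a partner of the p53 message. Missense p53 proteins of tumors mostly lose the binding to p53 sites in DNA and often build up in the cell.

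The 3 substitutions lie in the DNA-binding part of p53 and are shown because they define the lines. In the transcript whose coding sequence the retrovirus carried (ENSMUST00000108658.9, 1771 bases, 11 exons, 390 residues), the reference codon replaced in R172H is in exon 5 and those replaced in Y202C and Y217C are in exon 6. On GRCm38 they are at chr11:69588511-69588513, chr11:69588679-69588681 and chr11:69588724-69588726 on the forward strand. Each codon is printed below in capitals with 18 reference bases on both sides. These are sequences of the reference transcript, and the base changes that the authors made were not read here.
R172H codon: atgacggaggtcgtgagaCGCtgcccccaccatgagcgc
Y202C codon: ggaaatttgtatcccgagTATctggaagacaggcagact
Y217C codon: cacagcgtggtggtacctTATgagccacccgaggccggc
The Y202C and Y217C codons are the same triplet in this reference transcript, and both substitutions turn a tyrosine into a cysteine, while R172H turns an arginine into a histidine.

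Trp53 (ENSMUSG00000059552) is at chr11:69580359-69591873 on the forward strand of GRCm38 and Wrap53 (ENSMUSG00000041346) at chr11:69561758-69580255 on the reverse strand. In the annotation used, GENCODE M21, the 2 genes did not overlap. They point away from each other with 103 bases between their starts, which goes against a description of Wrap53 as overlapping Trp53, although the Ensembl gene models behind the authors' counts may differ. The stretch between them, chr11:69580256-69580358, is printed because it is the only sequence that lies upstream of both genes. Its capitals mark the 1 match to the p53 half-site, which begins 75 bases before the start of Trp53.
Between Wrap53 and Trp53: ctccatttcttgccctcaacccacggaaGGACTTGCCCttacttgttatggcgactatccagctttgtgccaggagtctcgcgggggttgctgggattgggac
Mdm2 (ENSMUSG00000020184) is at chr10:117688875-117710758 and Mdm4 (ENSMUSG00000054387) at chr1:132959484-133030561, both on the reverse strand. The 250 bases before Mdm2, chr10:117710759-117711008, are printed as read on the reverse strand, and they also held 1 half-site, in capitals, which begins 186 bases before the gene.
Upstream of Mdm2: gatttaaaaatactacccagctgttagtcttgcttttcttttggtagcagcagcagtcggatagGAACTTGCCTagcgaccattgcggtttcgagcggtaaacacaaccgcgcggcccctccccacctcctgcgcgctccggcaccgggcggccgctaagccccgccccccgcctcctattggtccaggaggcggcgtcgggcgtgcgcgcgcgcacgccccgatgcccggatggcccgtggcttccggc
Sequences are from RefSeq promoter windows on GRCm38.p6, searched on both strands. A half-site was present in 8.36% of all 32851 windows of the same length (300 bases), and neither of the 2 Mdm4 windows held one. A full site, 2 half-sites with at most 13 bases between them, was in 0.0731% of all windows and in none of the members' windows. The well-known p53 sites of Mdm2 lie in its first intron, outside these windows.

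The libraries held 52787288 to 136503809 counts each. The label astrocyte was checked against 9 astrocyte markers, all in the table, whose summed level ran from 197 to 653 CPM (library-scaled counts with the TMM factors of edgeR, the trimmed mean of M values). Gfap, the defining filament of astrocytes, averaged 6.93 CPM in male p53 Y217C and at most 0.257 CPM in every other line. Aqp4 had a mean of 0 in male p53 R172H and female p53 KO. Other markers of the list were higher, with line means of 81.0 to 221 CPM for Gja1 and 80.0 to 183 CPM for Sox9. Slc1a3 ran from 3.14 to 281 CPM. The authors assessed the purity of their astrocytes by immunofluorescence for GFAP protein. The 5 fibroblast markers summed to between 7970 and 41300 CPM, with Col1a1, a fibrillar collagen, at a line mean of up to 21800 CPM. Most of that sum was Col1a1 and Col1a2. Outside female p53 R172H, Lum averaged at most 0.675 CPM and Dcn at most 15.4 CPM. Microglia, oligodendrocyte, neuron and endothelial lists had 2 of 6, 3 of 7, 3 of 7 and 2 of 4 genes in the table. In such bulk libraries, fewer cells of a type and less RNA per cell cannot be told apart.

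Trp53 was raised in every mutant line, by 12.1-fold to 75.8-fold over p53 KO. The read counts do not separate the retroviral message from what is left of the endogenous gene. In male p53 KO the libraries had 53.7, 50.7 and 48.3 CPM, and in female p53 KO they had 51.9, 46.5 and 48.4 CPM. The KO libraries of both sexes overlapped, and their level was not zero, with 3630 to 6372 reads per library. Which exons these reads came from was not tested, since the table counts whole genes. Male p53 R172H had 2315, 2196 and 2349 CPM, male p53 Y202C 2444, 2268 and 2259 CPM, and male p53 Y217C 1188, 1247 and 1211 CPM. Among males the first pair of lines overlapped, and p53 Y217C was below both in all libraries. Female p53 R172H had 1890, 2020 and 1957 CPM, female p53 Y202C 602, 605 and 573 CPM, and female p53 Y217C 3546, 3870 and 3710 CPM. The 3 female mutants did not overlap one another.

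Y202C and Y217C each gave a high line in one culture and a low line in the other, in opposite order, while the R172H lines were closer. Ordered by mean, female p53 Y217C (3709 ± 162 CPM, SD, n = 3) was followed by male p53 Y202C (2324 ± 104), male p53 R172H (2287 ± 80.2), female p53 R172H (1956 ± 65.4), male p53 Y217C (1215 ± 29.5) and female p53 Y202C (593.1 ± 18). Male p53 KO (50.9 ± 2.75) and female p53 KO (48.9 ± 2.72) came last. Male p53 Y202C and R172H were the only neighbouring mutants whose ranges overlapped, and the highest mutant line exceeded the lowest 6.25-fold. Trp53 took up to 0.394% of all counts in a female p53 Y217C library and at most 0.00534% in a KO library.

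Against p53 KO, the log2 fold change of Trp53 was 5.49 (SE 0.06), 5.51 (SE 0.06) and 4.58 (SE 0.06) in male p53 R172H, Y202C and Y217C. In females it was 5.32 (SE 0.06), 3.6 (SE 0.06) and 6.24 (SE 0.07), in the same order. The edgeR quasi-likelihood test with Benjamini-Hochberg adjustment over all genes gave adjusted p-values between 1.63e-27 and 3.33e-23. Trp53 had the second largest rise of all genes in male p53 R172H and the fourth largest in female p53 Y217C, but 160 was its place in female p53 Y202C.

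**Figure D1:**
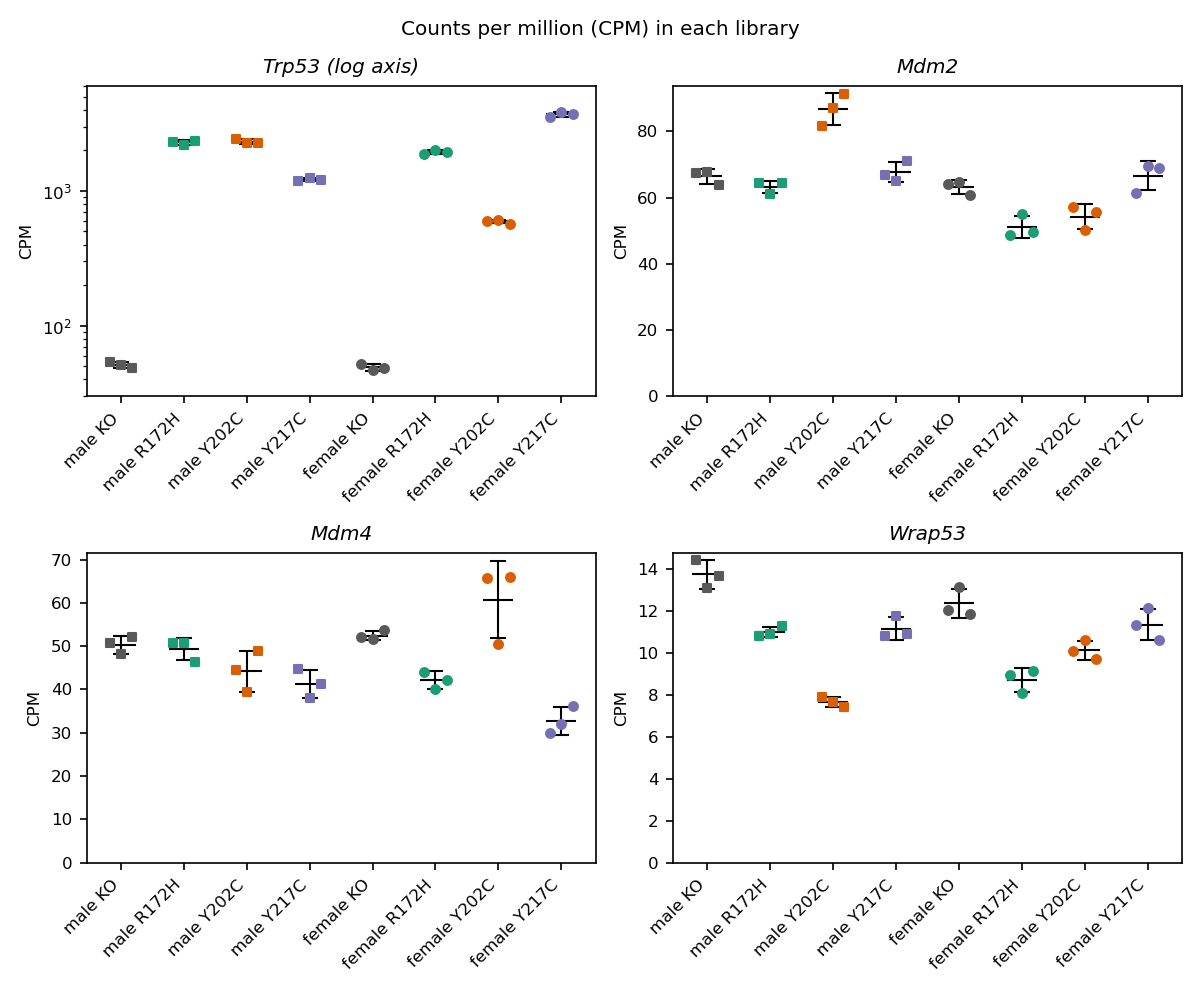
CPM of Trp53 (log axis), Mdm2, Mdm4 and Wrap53 in each of the 24 libraries, by line. Squares are male and circles female libraries, and the black bars give the mean and SD of 3 libraries. Trp53 separates the mutants from p53 KO by at least 12.1-fold, whereas the highest and lowest lines differ 1.7-fold in Mdm2, 1.85-fold in Mdm4 and 1.79-fold in Wrap53.

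The table as a whole moved strongly between lines, which sets the scale for the members. Of all genes, 40.7% passed the threshold (adjusted p of 0.05 at most) in male p53 R172H against p53 KO, 73% in male p53 Y202C and 70.5% in male p53 Y217C. In females the shares were 69.7%, 68.6% and 56.7% for p53 R172H, Y202C and Y217C. In this order, 2, 3 and 3 of the 4 members passed in males and 4, 4 and 2 in females. Trp53 accounts for 1 in each. Of the 3 other genes, 1, 2 and 2 passed in males and 3, 3 and 1 in females, counts too small to be set apart from these background shares.

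Mdm2, the ligase that wild-type p53 induces, was higher than in p53 KO in 1 mutant line, lower in 2 and not past the threshold in 3. In male p53 KO it was at 67.3, 67.9 and 63.9 CPM, and in male p53 Y202C at 81.7, 86.9 and 91.4 CPM. Every male p53 Y202C library was above every male KO library. The increase was 1.31-fold (log2 0.38, SE 0.06, edgeR adjusted p = 5.17e-06). Male p53 R172H had 64.4, 61.1 and 64.3 CPM and male p53 Y217C 66.7, 65.1 and 70.9 CPM. These libraries overlapped male p53 KO, with log2 differences of -0.07 (95% interval -0.20 to 0.06, edgeR adjusted p = 0.395) and 0.03 (-0.10 to 0.15, adjusted p = 0.713).

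In female p53 KO, Mdm2 was at 64.1, 64.8 and 60.7 CPM. Female p53 R172H had 48.7, 55.0 and 49.6 CPM, and female p53 Y202C had 57.1, 50.1 and 55.6 CPM. Both mutants lay wholly below female p53 KO. Mdm2 fell by 0.31 on the log2 scale in p53 R172H (SE 0.06, edgeR adjusted p = 0.000109) and by 0.22 in p53 Y202C (SE 0.06, edgeR adjusted p = 0.00312). Female p53 Y217C, the line with the most Trp53, had 61.5, 69.5 and 68.9 CPM. It overlapped female p53 KO, and the log2 difference was 0.08 (95% interval -0.05 to 0.20, edgeR adjusted p = 0.303). With limma voomWithQualityWeights this difference passed (log2 0.11, adjusted p = 0.032). Thus a 75.8-fold rise of Trp53 stood beside an Mdm2 difference whose interval ended at 0.20 on the log2 scale. Among all 8 lines male p53 Y202C was highest and female p53 R172H lowest, and apart from the step below male p53 Y202C and the step below female p53 KO each line overlapped the next.

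Mdm4, the partner of Mdm2 that lacks strong ligase activity of its own, was lower in 3 mutant lines, higher in 1 and not past the threshold in 2. Female p53 KO had 52.0, 51.6 and 53.7 CPM, and female p53 Y217C had 29.9, 32.1 and 36.3 CPM. The female p53 Y217C libraries were the 3 lowest of all 24. The log2 change was -0.68 (0.624-fold, SE 0.09, edgeR adjusted p = 9.92e-07). Female p53 R172H had 44.1, 40.02 and 42.1 CPM, below all female KO libraries, with a log2 change of -0.32 (SE 0.09, edgeR adjusted p = 0.00316).

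Female p53 Y202C, the mutant with the least Trp53, had the highest Mdm4 of any line, but its libraries did not sit together. Their levels were 65.7, 50.4 and 66.0 CPM, so 1 library fell below the female p53 KO libraries and 2 were above them. The log2 difference was 0.21 (SE 0.09, edgeR adjusted p = 0.0413). This call was lost without any 1 of the female KO libraries and without p53 Y202C replicate 1 or 3, where adjusted p ran from 0.0566 to 0.182 (edgeR), and it held without replicate 2 (log2 0.33, adjusted p = 0.00112).

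In males, Mdm4 was at 50.6, 48.1 and 52.1 CPM in p53 KO and at 44.6, 38.0 and 41.2 CPM in p53 Y217C. All 3 p53 Y217C libraries were below the KO libraries, and the log2 change was -0.28 (SE 0.09, edgeR adjusted p = 0.00745). Male p53 R172H had 50.8, 50.8 and 46.4 CPM and overlapped KO (log2 -0.03, 95% interval -0.21 to 0.16, edgeR adjusted p = 0.838). Male p53 Y202C had 44.6, 39.3 and 48.8 CPM, with a log2 difference of -0.18 that missed the threshold (SE 0.09, edgeR adjusted p = 0.0694). It passed with limma voomWithQualityWeights (log2 -0.25, adjusted p = 0.00205).

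Wrap53 was lower in all 6 mutant lines, and the difference passed the threshold in 5. Male p53 KO had 14.4, 13.1 and 13.7 CPM and female p53 KO 12.1, 13.2 and 11.9 CPM. Male p53 Y202C had 7.88, 7.67 and 7.43 CPM, the 3 lowest libraries of all 24. The decrease to 0.558-fold was the largest for Wrap53 (log2 -0.84, SE 0.07, edgeR adjusted p = 2.45e-10). Male p53 R172H had 10.8, 10.9 and 11.3 CPM, and male p53 Y217C had 10.8, 11.8 and 10.9 CPM. Neither overlapped male p53 KO, and the log2 changes were -0.32 (SE 0.07, edgeR adjusted p = 0.000907) and -0.30 (SE 0.07, adjusted p = 0.000681). Female p53 R172H had 8.93, 8.07 and 9.12 CPM, and female p53 Y202C had 10.1, 10.6 and 9.71 CPM. Both lay below female p53 KO in all libraries, with log2 changes of -0.50 (SE 0.07, edgeR adjusted p = 1.22e-06) and -0.29 (SE 0.07, adjusted p = 0.00123). Female p53 Y217C had 11.3, 12.1 and 10.6 CPM and overlapped female p53 KO (log2 -0.12, 95% interval -0.27 to 0.03, edgeR adjusted p = 0.154).

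The 3 comparisons of a sex use the same KO libraries, so the 6 values are not 6 independent findings. The order of the lines had few gaps in it, since only male p53 R172H, female p53 Y202C and female p53 R172H stood clear of the next lower line. The strand of counting is not given in the sources used here, so reads from transcripts on the other strand of Wrap53 could not be told apart from its own.

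**Figure D2:**
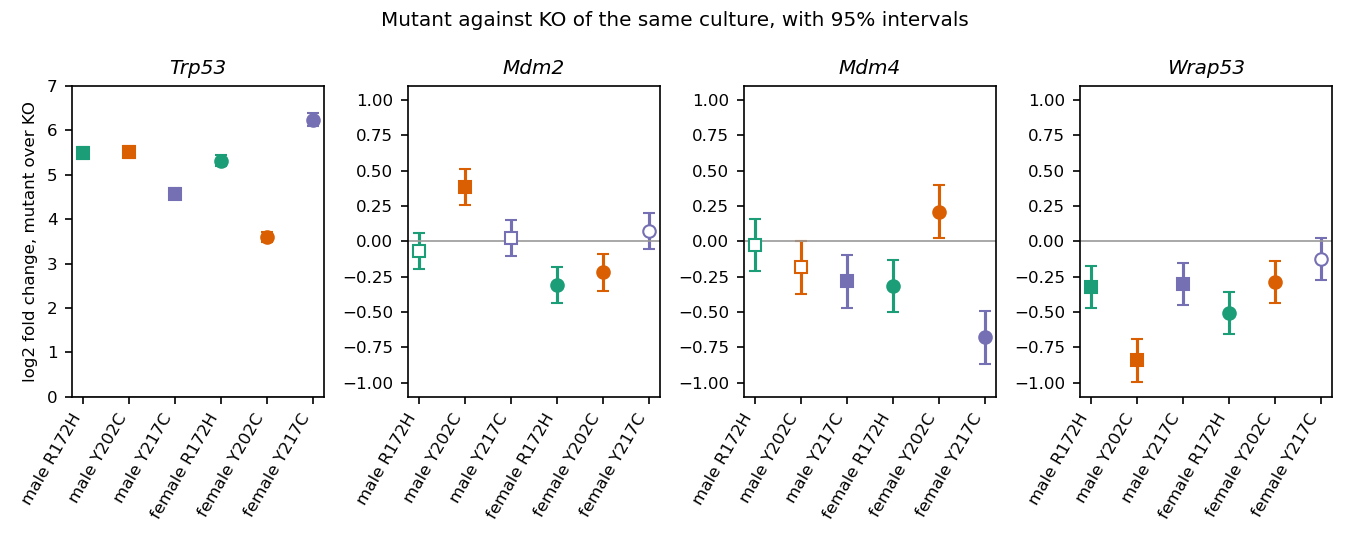
Log2 fold change of each mutant line over the p53 KO line of its culture, with 95% intervals from edgeR. Filled symbols passed the threshold (adjusted p of 0.05 at most), squares are male and circles female, and Trp53 has its own axis. Wrap53 lies below 0 in all 6 comparisons, Mdm2 and Mdm4 lie on both sides, and Trp53 runs from 3.6 to 6.24.

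The retrovirus carries Trp53 at its own sites of insertion, so the genes beside the endogenous Trp53 and Mdm genes were examined as a background for Wrap53. Within 250 kb of Trp53, 26 other genes were tested. In males 2, 5 and 10 of them rose and 11, 15 and 11 fell against p53 KO in p53 R172H, Y202C and Y217C, and in females 7, 12 and 7 rose and 13, 6 and 11 fell. Their median log2 change ran from -0.27 to 0.17, and the median of all genes from -0.01 to 0.01. The nearest tested gene on the far side of Trp53 was Atp1b2, a subunit of the sodium pump 7862 bases away, at 7.64 CPM in male and 6.59 CPM in female p53 KO. It rose in 2 and fell in 4 of the 6 lines, from 2.52 CPM in male p53 Y202C to 17.0 CPM in male p53 Y217C. Beyond Wrap53, Efnb3, an ephrin ligand, lies 20153 bases from Trp53 and rose in 1 line, fell in 1 and did not pass in 4. Of the 26 genes, 8 fell in at least 5 lines, as Wrap53 did (30.8%, against 9.12% of all genes tested). Another 3 rose in at least 5 lines (11.5%, against 8.57% of all genes tested). Fxr2, Eif4a1, Senp3 and Tmem88 fell in all 6, as did 369 of all 14427 genes. Tmem256 rose in all 6, as did 366 of all genes. These genes were named after their values were seen, and the 6 comparisons share their KO libraries.

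The genes near the other members moved in their own ways. Slc35e3, 22920 bases from Mdm2, rose in 2 lines, fell in 2 and did not pass in 2. No gene was tested within 250 kb on the other side of Mdm2. Pik3c2b, a phosphoinositide kinase 15105 bases from Mdm4, rose in male p53 R172H and fell in the 5 other lines. Gm29257, a processed pseudogene, lies inside Mdm4 on the opposite strand and fell in 3 lines. It averaged 5.36 CPM over all libraries, and without a stated strand its reads and those of Mdm4 are uncertain to that extent.

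Mutant lines were then set against one another within a sex, where every line had been transduced and sorted. In males, p53 Y202C and p53 R172H did not differ past the threshold in Trp53 (log2 difference 0.02, 95% interval -0.09 to 0.13, edgeR adjusted p = 0.708). Between these lines of close Trp53 levels, Mdm2 was 1.37-fold higher in p53 Y202C (log2 0.45, SE 0.06, edgeR adjusted p = 5.01e-07) and Wrap53 was 0.697-fold as high (log2 -0.52, SE 0.07, adjusted p = 8.79e-07). Mdm4 differed by -0.16 (95% interval -0.34 to 0.03, edgeR adjusted p = 0.124). Of all genes, 71.4% passed in this pair, so differences between lines of close Trp53 levels were common.

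Male p53 Y217C had 0.531-fold the Trp53 of p53 R172H (log2 -0.91, SE 0.05, edgeR adjusted p = 1.97e-13). Mdm2 differed by 0.10 (95% interval -0.03 to 0.22) and Wrap53 by 0.02 (-0.13 to 0.17), and neither passed, while Mdm4 fell by 0.26 on the log2 scale (SE 0.09, edgeR adjusted p = 0.015). Without p53 Y217C replicate 2 this Mdm4 call was lost (log2 -0.19, edgeR adjusted p = 0.0946). Against p53 Y202C, male p53 Y217C had 0.523-fold the Trp53, 0.78-fold the Mdm2 (edgeR adjusted p = 1.48e-05) and 1.46-fold the Wrap53 (adjusted p = 5.05e-07). Mdm4 did not pass in this pair (log2 -0.10, 95% interval -0.29 to 0.09, edgeR adjusted p = 0.328). The shares of all genes that passed were 68.9% and 73.5% in these pairs.

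The widest contrast in dose was female p53 Y217C against female p53 Y202C, with 6.25-fold more Trp53 (log2 2.64, SE 0.06, edgeR adjusted p = 2.34e-21). Mdm4 was 0.539-fold as high in p53 Y217C (log2 -0.89, SE 0.09, edgeR adjusted p = 9.63e-09). Mdm2 was 1.23-fold higher (log2 0.30, SE 0.06, edgeR adjusted p = 0.000224), and Wrap53 differed by 0.17 on the log2 scale and narrowly missed the threshold (95% interval 0.02 to 0.32, edgeR adjusted p = 0.0516). So over this range Mdm4 went down and Mdm2 up, each by far less than Trp53 went up.

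The 2 remaining female pairs shared p53 R172H. Female p53 Y217C had 1.9-fold its Trp53, 1.3-fold its Mdm2 (edgeR adjusted p = 7.80e-06), 1.3-fold its Wrap53 (adjusted p = 5.96e-05) and 0.778-fold its Mdm4 (adjusted p = 0.0012). Female p53 Y202C had 0.303-fold its Trp53 and 1.44-fold its Mdm4 (edgeR adjusted p = 2.16e-05), while Mdm2 differed by 0.09 (95% interval -0.04 to 0.22, adjusted p = 0.235). Wrap53 was 1.16-fold higher (edgeR adjusted p = 0.0135), a call lost without p53 R172H replicate 2 or p53 Y202C replicate 2 (adjusted p = 0.0811 and 0.0574). Of all genes, 62.6%, 66.2% and 59.5% passed in the pairs p53 Y217C against Y202C, Y217C against R172H and Y202C against R172H. With less Trp53 than p53 R172H, the p53 Y202C line thus had more Wrap53, and with more Trp53 the p53 Y217C line also had more.

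Over the 6 mutant lines together, the relation to Trp53 was weak for Mdm2 and Wrap53 and negative for Mdm4. Correlations were computed over line means of log2 CPM and are given as a description, since the 6 points come from 2 cultures and share the library scaling. For Mdm2, Pearson's r was 0.414 and Spearman's rho 0.429. Leaving out 1 line at a time, r lay between 0.112 and 0.58. For Mdm4, r was -0.793 and rho -0.486, the strongest of the 3, and r lay between -0.9 and -0.466 without any 1 line. Without both the lines with the most and the least Trp53, female p53 Y217C and female p53 Y202C, r was 0.681 over the 4 lines left, so the negative sign rests on those 2 ends of the range. For Wrap53, r was -0.0481 and rho 0.143, and leaving out 1 line moved r between -0.396 and 0.211. A straight line through the 6 means had a slope of 0.12 for Mdm2, -0.25 for Mdm4 and -0.012 for Wrap53, in log2 units per log2 unit of Trp53.

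**Figure D3:**
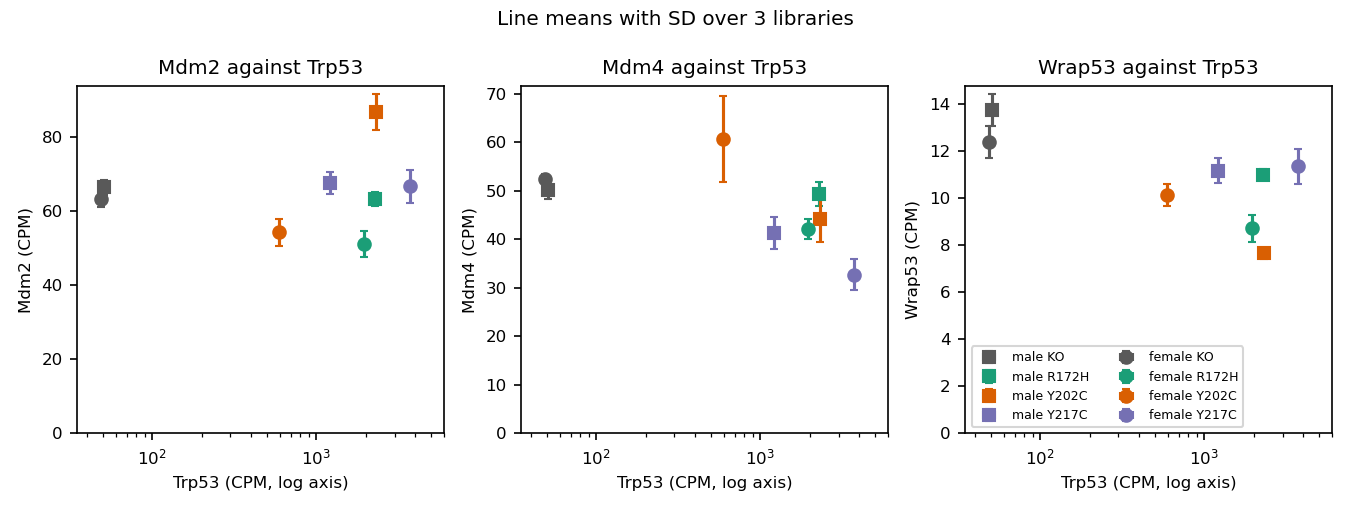
Line means of Mdm2, Mdm4 and Wrap53 (CPM) against Trp53 (CPM, log axis), with SD over 3 libraries as bars; squares are male and circles female lines. Mdm4 is highest in female p53 Y202C and lowest in female p53 Y217C, the mutants with the least and the most Trp53, and the 4 mutant lines between them do not continue that slope.

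Mdm2 and Mdm4 act together on p53, so the ratio of their counts was taken within each library, where scaling between libraries drops out. In male p53 KO the ratio was 1.33, 1.41 and 1.23 and in female p53 KO 1.23, 1.26 and 1.13. Male p53 R172H (1.29 ± 0.0924, SD, n = 3) and female p53 R172H (1.22 ± 0.141) overlapped their KO lines. The ratio was above that of KO in every library of male p53 Y202C (1.97 ± 0.208), male p53 Y217C (1.64 ± 0.128) and female p53 Y217C (2.04 ± 0.134). It was below KO in every library of female p53 Y202C (0.902 ± 0.0811), the only line with fewer Mdm2 than Mdm4 reads. With 3 libraries a side no test was run on these ratios. They are ratios of reads and not of molecules, because the genes differ in length.

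**Figure D4:**
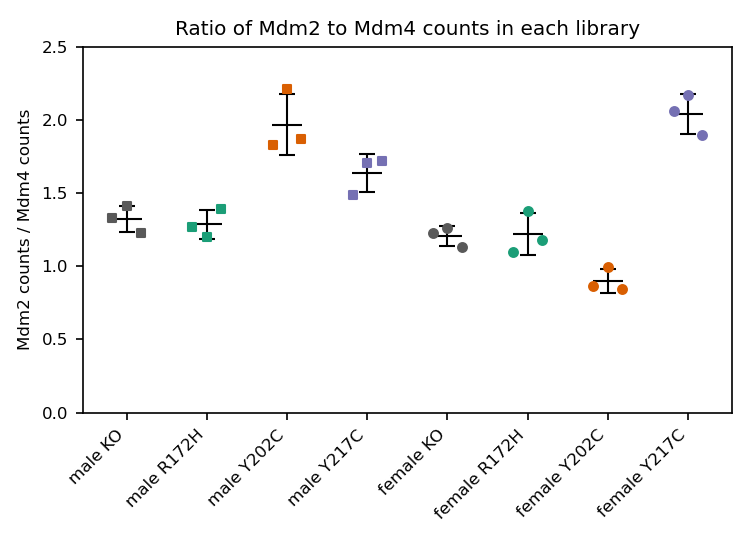
Ratio of Mdm2 to Mdm4 counts in each library, with mean and SD of 3 libraries per line. Male p53 Y202C and female p53 Y217C average 1.97 and 2.04, the p53 KO lines 1.32 and 1.21, and all 3 female p53 Y202C libraries are below 1.

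Levels of different genes were compared as CPM per kb of one transcript of each. In male p53 KO, Trp53 was at 28.7, Mdm2 at 21.4, Mdm4 at 14.4 and Wrap53 at 7.27 CPM per kb. In female p53 KO the values were 27.6, 20.4, 15.0 and 6.54 CPM per kb, the same order. The order depends on the length used. Per kb of all annotated exons of a gene, Trp53 was at 12.1, Mdm2 at 12.4, Mdm4 at 3.54 and Wrap53 at 6.0 CPM per kb in female p53 KO, which puts Mdm2 above Trp53 and Wrap53 above Mdm4, and male p53 KO had that order too. In female p53 Y217C, Trp53 was at 2094 CPM per kb beside 21.5 for Mdm2 and 9.39 for Mdm4. As reads, with no regard to length, Trp53 outnumbered Mdm2 55.7 to 1 in that line and 11 to 1 in female p53 Y202C, against 0.767 to 1 in male and 0.775 to 1 in female p53 KO. The retroviral message also carries eGFP, so the length that matters is that of its Trp53 part. If that part is shorter than the reference transcript of 1771 bases, the Trp53 level per kb is understated.

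The sexes were compared within each genotype. In p53 KO no member passed the threshold in males against females, where 31.1% of all genes did. Trp53 differed by 0.06 on the log2 scale (95% interval -0.06 to 0.17), Mdm2 by 0.07 (-0.06 to 0.20), Mdm4 by -0.06 (-0.25 to 0.12) and Wrap53 by 0.15 (0.01 to 0.30, edgeR adjusted p = 0.109). In p53 R172H all 4 were higher in males, Trp53 1.17-fold, Mdm2 1.24-fold, Mdm4 1.17-fold and Wrap53 1.26-fold (edgeR adjusted p = 0.000724, 0.000131, 0.0309 and 0.000288), among 62% of all genes. The Mdm4 call was lost without female p53 R172H replicate 2 or 3 and without male p53 R172H replicate 1 or 2, with edgeR adjusted p between 0.0593 and 0.108. In p53 Y202C, Trp53 was 3.92-fold and Mdm2 1.6-fold higher in males, and Mdm4 (0.729-fold) and Wrap53 (0.757-fold) were lower, among 75.3% of all genes. In p53 Y217C, Trp53 was 0.328-fold as high in males and Mdm4 1.26-fold higher, among 68% of all genes, while Mdm2 differed by 0.02 (95% interval -0.11 to 0.15) and Wrap53 by -0.03 (-0.18 to 0.12).

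The effect of a substitution against KO was itself compared between the sexes, as an interaction in the same fit. For Y202C the male effect exceeded the female effect by 1.91 for Trp53 (edgeR adjusted p = 2.21e-16) and 0.60 for Mdm2 (adjusted p = 1.46e-06) on the log2 scale. It was below the female effect by 0.40 for Mdm4 (edgeR adjusted p = 0.00849) and 0.55 for Wrap53 (adjusted p = 4.28e-05). For Y217C the difference was -1.67 for Trp53 (edgeR adjusted p = 4.70e-15) and 0.40 for Mdm4 (adjusted p = 0.0111), and not past the threshold for Mdm2 (-0.05, 95% interval -0.23 to 0.13) and Wrap53 (-0.18, -0.39 to 0.03). For R172H it passed for Mdm2 alone (0.24, edgeR adjusted p = 0.0222), and this was lost without female p53 KO replicate 2, female p53 R172H replicate 1 or 3, or male p53 KO replicate 3 (adjusted p of 0.0513 to 0.0638). Of all genes, 58%, 68% and 54.8% passed for R172H, Y202C and Y217C. Because the 2 cultures also reached different Trp53 doses for the same substitution, dose, sex and culture cannot be told apart here.

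Marker levels also differed from KO in several lines. Male p53 Y217C was neither highest nor lowest for any member, but its Mdm4 and Wrap53 were below KO past the threshold. It had 501 to 535 CPM of astrocyte markers (male p53 KO 340 to 366 CPM) and 16600 to 17300 CPM of fibroblast markers (male p53 KO 25300 to 30300 CPM). Male p53 Y202C, with the highest Mdm2 and lowest Wrap53, also had the lowest summed astrocyte markers (197 to 207 CPM, male p53 KO 340 to 366 CPM) and the lowest summed fibroblast markers (7970 to 9800 CPM, male p53 KO 25300 to 30300 CPM). Female p53 Y217C, with the lowest Mdm4, had 248 to 285 CPM of astrocyte markers against 346 to 373 CPM in female p53 KO, and its fibroblast markers overlapped KO (23600 to 25500 against 22300 to 24000 CPM). Female p53 R172H, with the lowest Mdm2, had the highest sums of both lists, 618 to 653 CPM and 35300 to 41300 CPM. Within the astrocyte list the genes of male p53 Y202C went both ways, with 3 higher and 6 lower than in KO. Its sum was carried by Gja1 (187 CPM in KO, 81.0 CPM) and Sox9 (151 and 80.0 CPM), while Aldh1l1 rose from 0.629 to 28.4 CPM. Of the 5 fibroblast genes in male p53 Y202C, 1 was higher than in KO, 2 were lower and 2 did not pass. The endothelial markers in the table, Cdh5 and Kdr, summed to 36.9 to 42.3 CPM in male p53 KO and 2.3 to 6.11 CPM in the male mutants. In females they summed to 13.5 to 14.2 CPM in p53 KO and 6.63 to 10.9 CPM in the mutants. The 2 genes went opposite ways in female p53 Y202C, where Cdh5 rose (2.2 CPM in KO, 4.89 CPM) and Kdr fell (11.7 and 4.33 CPM). In female p53 R172H Kdr fell and Cdh5 did not pass. The neuron sums were 126 to 129 CPM in female p53 KO, 31.3 to 38.2 in female p53 R172H and 42.0 to 56.3 in female p53 Y202C. They were 100 to 103 CPM in male p53 KO and 47.9 to 54.0 CPM in male p53 Y202C. Male p53 R172H (112 to 133 CPM) and male p53 Y217C (126 to 137 CPM) were above male p53 KO. The neuron genes of male p53 Y202C and Y217C went both ways. Tubb3 fell from 88.0 CPM in KO to 19.7 and 15.7 CPM, and Map2 rose from 13.2 to 32.2 and 116 CPM. The higher sum of male p53 Y217C was thus carried by Map2. The microglia sums were 64.4 to 80.7 CPM in male p53 KO and 16.7 to 22.2 CPM in male p53 Y202C and Y217C. They were higher in all 3 female mutants (72.0 to 114 CPM) than in female p53 KO (43.1 to 46.8 CPM). These sums were almost wholly Tmem119, at 44.6 CPM in female p53 KO beside 0.601 CPM for Csf1r, the other gene in the table. In male p53 Y217C Csf1r rose (log2 0.77) while Tmem119 fell (log2 -2.15). In female p53 Y217C Tmem119 rose (log2 1.12) and Csf1r did not pass (log2 -0.14). The part of these differences in the members' values was not tested.

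Other genes that act on p53 or with Mdm2 and Mdm4 were taken from a list of 21, all in the table. In males 4, 8 and 4 rose and 3, 9 and 14 fell against KO in p53 R172H, Y202C and Y217C, and in females 4, 2 and 7 rose and 11, 13 and 7 fell. The shares that passed, 33.3%, 81% and 85.7% in males and 71.4%, 71.4% and 66.7% in females, lay on both sides of the shares of all genes. The list's median log2 change ran from -0.25 to 0.03. Rchy1, another ubiquitin ligase for p53, rose in 4 lines, from 25.4 CPM in male p53 KO to 44.2 CPM in male p53 Y202C. Csnk1a1, a casein kinase that works with Mdm4, rose in 5, and its mean log2 change was 0.23. Abl1, a kinase that phosphorylates Mdm2, fell in all 6 lines, with a mean log2 change of -0.33. Trim28, a corepressor that binds Mdm2, fell in 5 and rose in male p53 R172H.

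Cdkn2a, whose Arf product inhibits Mdm2, fell in 3 lines and did not pass in 3. It averaged 326 CPM in male and 311 CPM in female p53 KO, 221 and 223 CPM in male p53 Y202C and Y217C, and 203 CPM in female p53 Y202C. Usp7, which removes ubiquitin from p53 and Mdm2, rose in male p53 Y202C (183 CPM in KO, 242 CPM) and fell in 3 lines. Trp63, a p53 relative, rose in 5 lines from 0.396 CPM in male and 0.248 CPM in female p53 KO, to at most 3.68 CPM in female p53 R172H. Trp73 was not in the table used here.

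Kinases, acetylases and cofactors of p53 made a list of 20, all in the table. In males 3, 9 and 4 rose and 5, 9 and 8 fell, and in females 6, 4 and 5 rose and 11, 7 and 5 fell, in the order p53 R172H, Y202C and Y217C. The shares that passed, 40%, 90% and 60% in males and 85%, 55% and 50% in females, lay on both sides of those of all genes. Trp53inp1, a stress-induced cofactor of p53, rose in all 6 lines, from 3.45 CPM in male p53 KO to 14.2 CPM in male p53 Y217C and from 3.56 CPM in female p53 KO to 13.8 CPM in female p53 R172H. Ppp1r13b, which steers p53 to genes of cell death, rose in 4 and fell in 1. Trp53bp2, of the same family, fell in all 6 lines, from 63.4 CPM in female p53 KO to 29.4 CPM in female p53 Y217C. Setd7, a lysine methyltransferase, fell in 3 and did not pass in 3.

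Textbook targets of wild-type p53 numbered 34, all in the table. In males 13, 16 and 13 rose and 3, 12 and 13 fell in p53 R172H, Y202C and Y217C, and in females 14, 11 and 18 rose and 12, 16 and 7 fell. The shares that passed were 47.1%, 82.4% and 76.5% in males and 76.5%, 79.4% and 73.5% in females, against 40.7%, 73%, 70.5%, 69.7%, 68.6% and 56.7% of all genes in the same order, which for 34 genes is a difference of few genes in several comparisons, and the median log2 change of the list was between -0.08 and 0.23. Cdkn1a, the cell cycle inhibitor p21, rose in 2 lines, fell in 2 and did not pass in 2, and went from 20.4 CPM in male p53 KO to 10.1 CPM in male p53 Y217C and from 16.8 CPM in female p53 KO to 8.49 CPM in female p53 Y202C and 24.4 CPM in female p53 Y217C. Dglucy, a metabolic enzyme, rose in all 6 lines (mean log2 change 1.76), and Cd80, an immune ligand at 2.81 CPM or less in each line, rose in 4. Pmaip1, the death factor Noxa, rose in male p53 R172H and Y202C and fell in the 4 other lines, from 47.0 CPM in female p53 KO to 3.19 CPM in female p53 Y202C. Tnfrsf10b, a death receptor, fell in 5.

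Genes that work with the Wrap53 protein in telomerase and Cajal bodies made a list of 15, all in the table. In males 3, 3 and 3 rose and 5, 6 and 6 fell, and in females 3, 2 and 3 rose and 10, 8 and 4 fell, in the same order. The shares that passed were 53.3%, 60% and 60% in males and 86.7%, 66.7% and 46.7% in females, again on both sides of those of all genes. Their median log2 change was lowest in female p53 R172H, at -0.45. Tert, the catalytic subunit of telomerase, fell in 5 lines, from 8.82 CPM in male p53 KO to 2.26 CPM in male p53 Y202C and 0.929 CPM in male p53 Y217C, and rose in female p53 Y217C (8.11 CPM in KO, 10.2 CPM). Nhp2, a protein of the telomerase RNA particle, also fell in 5. Acd and Terf2, of the shelterin complex on telomeres, each rose in 5.

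The genes most like each member were found by Pearson's r of log2 CPM over the 8 line means, among genes of at least 5 CPM on average. Line means share their libraries and scaling, so r is a description. For Trp53 the p53 KO lines stand far from the rest, and any gene that separates them from the mutants scores highly. Among the highest were Tmem130 (0.994), Htra2 (0.956), Cacng7 (0.95) and Vps37d (0.948), and these 4 rose in all 6 mutant lines. Over the 6 mutant lines alone, r was 0.985 for Tmem130, 0.983 for Htra2, 0.864 for Cacng7 and 0.409 for Vps37d. These 6 lines are among the 8 by which the genes were picked. The members themselves were far down this order, since Mdm2 had an r of 0.0917 with Trp53, Mdm4 -0.585 and Wrap53 -0.655.

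Tmem130 codes for a membrane protein and lies at chr5:144735915-144761818. It averaged 0.229 CPM in male and 0.115 CPM in female p53 KO, on 10 to 33 reads per library. In the mutants it averaged 9.14, 7.51 and 4.80 CPM in male p53 R172H, Y202C and Y217C and 8.17, 1.81 and 13.1 CPM in the female lines. Its lowest and highest mutant lines were thus those of Trp53. The log2 fold change over KO ran from 4.0 in female p53 Y202C to 6.84 in female p53 Y217C. Its average reached the minimum of 5 CPM only through the mutant lines. Because Tmem130 was picked for its likeness to Trp53 in these same libraries, its separation from KO and its shared order follow in part from the choice. They are no separate support. Htra2, a mitochondrial protease gene at chr6:83051266-83055273, went from 34.0 CPM in male and 37.4 CPM in female p53 KO to 121, 113 and 69.7 CPM in males and 102, 55.7 and 152 CPM in females. Male p53 R172H and Y202C, which overlapped in Trp53, also overlapped in Htra2 and in Tmem130. Whether these genes respond to mutant p53 or to another feature of the lines was not tested, and counts per gene do not show whether reads of these genes include vector sequence.

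**Figure D5:**
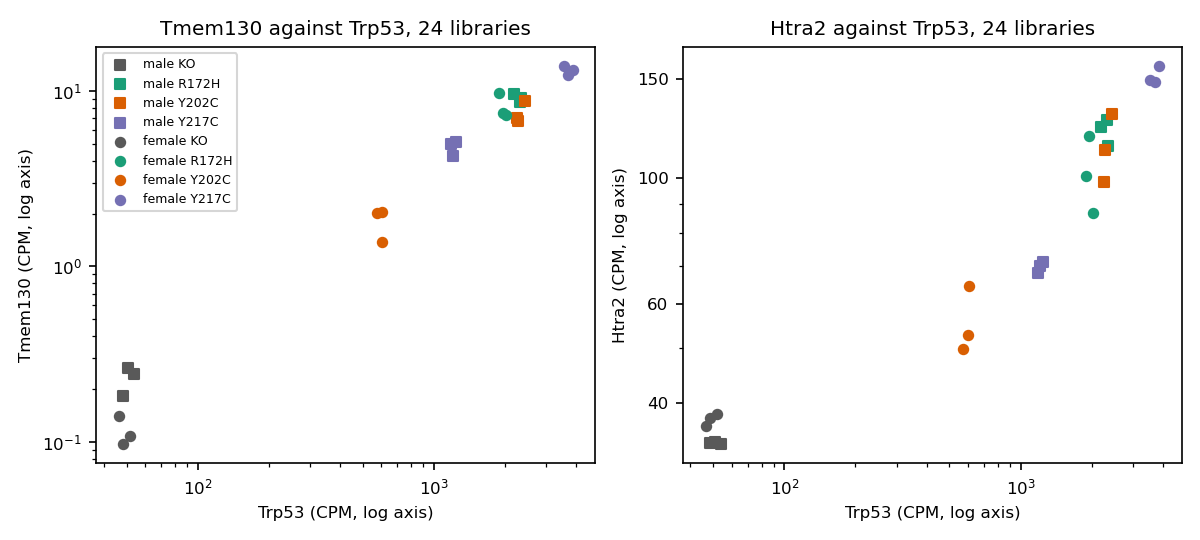
Tmem130 and Htra2 (CPM, log axes) against Trp53 (CPM, log axis) in each of the 24 libraries; squares are male and circles female. Both genes are lowest in the p53 KO libraries and highest in female p53 Y217C, with line means of Tmem130 from 0.115 to 13.1 CPM and of Htra2 from 34.0 to 152 CPM.

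The genes most like Mdm2 were Ltv1 (0.985) and Chordc1 (0.982), which act in ribosome assembly and as a chaperone partner, and Acy1 (0.972), an aminoacylase. Each rose in 1 line, fell in 2 and did not pass in 3. Mdm4 was most like Ccdc93 (0.961), Polr2l (0.933), a subunit shared by RNA polymerases, and Abi2 (0.917), and these varied by at most 0.52 on the log2 scale over the 8 lines, compared with 0.88 for Mdm4. Wrap53 was most like Tubb4b-ps1 (0.986), 2700038G22Rik (0.976), a long noncoding RNA, and Tubg1 (0.971), which codes for gamma-tubulin. Tubb4b-ps1 is a processed pseudogene, and its reads could belong to its parent gene. Tubg1 averaged 97.3 CPM in male and 96.8 CPM in female p53 KO and was lowest in male p53 Y202C, at 45.7 CPM, the line that was also lowest for Wrap53.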

How the data were processed

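RNA-seq libraries were made by the authors from polyA RNA, with a Qiagen RNeasy kit and a Clontech kit per the labels. Per the labels and methods, the authors used STAR 2.5.1a for alignment to Ensembl's primary assembly, and featureCounts of Subread to count reads that aligned uniquely and to a single gene. The strand of counting is not given in the sources used here. Their deposited table gives whole-number counts of 14427 genes in 24 libraries, with no scaling. Gene identifiers were matched to GENCODE M21 (GRCm38) for symbols and positions, and 77 had no match.

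The edgeR 4.0.16 quasi-likelihood test was run under R 4.3.3 with TMM scaling, all 24 libraries in the fit and a separate mean for every line. A filter of more than 1 CPM (library-scaled counts) in 2 libraries or more left the table as it was. Benjamini-Hochberg adjustment covered all genes of each comparison, and the threshold was 0.05. There were 19 comparisons: mutant against KO, mutant against mutant, male against female, and the difference between the effects in males and females. On simulated data for female p53 Y217C against KO, the test found 184 of 200 altered genes and made 11 false calls. The simulation altered 200 of 14427 genes, by folds larger than any change of Mdm2, Mdm4 or Wrap53, whereas 56.7% of genes passed in the real comparison. These figures therefore do not describe the test for changes as small as those of the 3 genes. Log2 CPM used a prior count of 2. Alternatives were limma 3.58.1 with voomWithQualityWeights, DESeq2 1.42.0, its size factors in edgeR, other filters, a threshold of 0.01, fits of the compared lines only, a replicate block, and leaving out each library. Promoter windows and motifs were read in Python 3.11.15.

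Members, lists and alternatives were chosen with earlier results of these data known. Named genes were all 4 members, for each list the 2 largest rises and 2 largest falls by mean log2 fold change over the 6 comparisons with KO among genes past the threshold in that direction, Cdkn2a, Usp7, Trp63 and Cdkn1a, the nearest tested genes beside Trp53, Mdm2 and Mdm4, and the genes most like each member, of which 1 is not reported here.

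Replicates of a line differed beyond sampling noise in all 24 pairs, with a chi-square per degree of freedom of at least 6.8. Total counts ranged from 52787288 to 136503809 per library, and among the members Wrap53 had the fewest reads, 487 to 1798 per library, and so the largest counting error. The ChIP-seq and exome experiments of the study were not analysed here.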

Additional observations from a re-analysis of the deposited data

Results flagged for a closer look

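In 7 cases the effect of a substitution against p53 KO differed between the male and the female culture by the interaction test of edgeR with Benjamini-Hochberg adjustment, with 3 libraries per line. Trp53 differed by 1.91 on the log2 scale for Y202C (adjusted p = 2.21e-16), male above female, and by -1.67 for Y217C (adjusted p = 4.70e-15), male below female. The counts hold retroviral and endogenous Trp53 reads together. Mdm2 differed by 0.238 for R172H (adjusted p = 0.0222), where males hardly moved and females fell, and by 0.605 for Y202C (adjusted p = 1.46e-06), where males rose and females fell. Mdm4 differed by -0.395 for Y202C (adjusted p = 0.00849) and by 0.396 for Y217C (adjusted p = 0.0111), so the sign was opposite for the 2 substitutions. Wrap53 differed by -0.555 for Y202C (adjusted p = 4.28e-05), falling in both sexes and further in males. Between 54.8% and 68% of all genes passed the same tests, so such differences were common in these lines, and their cause was not tested.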

How the results depend on the processing

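For the 4 genes in 19 comparisons, 76 results in all, 1060 alternative values were computed, of which 1001 kept their direction and side of the threshold. A further 24 lost the threshold, 24 gained it and 11 changed sign, none of them for a result past the threshold. Sign changes were in values near 0. Leaving out 1 library gave -0.0584 to 0.0141 for Mdm4 in male R172H against KO, -0.0186 to 0.0453 for Mdm2 in male Y217C against KO, -0.0148 to 0.043 for Trp53 in male Y202C against R172H, -0.012 to 0.0516 for Wrap53 in male Y217C against R172H, and -0.034 to 0.0535 for Mdm2 and -0.0701 to 0.0234 for Wrap53 in Y217C male against female. A filter at 10 CPM gave -0.00387 for Trp53 in male Y202C against R172H, and limma gave 0.000195 for Mdm4 in male Y217C against Y202C.

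The fit with no filter is not counted, since the filter had removed no gene. Counts of members past the threshold moved by over 1.5 times as follows. At an adjusted p of 0.01 they were 1 for male Y217C against R172H, 0 for the R172H interaction and 1 for the Y217C interaction. With limma voomWithQualityWeights, 1 member passed in KO male against female and 4 in the R172H interaction. Smaller moves are not listed here, but limma gave 9 more calls on members than edgeR and the threshold of 0.01 took away 6. The replicate block and the fit of the compared lines alone gave 2 each for the R172H interaction. Leaving out 1 library gave between 1 and 2 for male Y217C against R172H and between 0 and 2 for the R172H interaction.

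The relation of each gene to Trp53 over the mutant lines depended on the lines in it. For Mdm2, r was 0.146 without the 2 lines farthest from the median Trp53 and 0.112 without female Y202C. For Mdm4 it was 0.681 without the 2 farthest lines, -0.9 without male R172H, -0.466 without female Y202C and -0.664 without female Y217C. For Wrap53 it was 0.101 on the linear scale, -0.541 without the 2 farthest lines, and -0.126, 0.211, 0.0597, -0.0138, 0.0181 and -0.396 without male R172H, Y202C, Y217C and female R172H, Y202C, Y217C. Except on the linear scale, these values rest on 4 or 5 lines.

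Replicate numbers did not pair the libraries. Deviations from the line means correlated at -0.0116 on average between 84 same-numbered pairs (-0.313 to 0.245) and at 0.00571 between 168 other pairs, and 4 of 24 libraries correlated best with their own number. With the replicate block, Mdm4 in male Y202C against KO passed (log2 -0.19, adjusted p = 0.0389, edgeR), as did Mdm4 in the R172H interaction (0.29, adjusted p = 0.0294), and no other call on a member changed. The limits are 1 culture per sex, no line with the empty retrovirus, no wild-type library and counts that do not separate the retroviral from the endogenous message.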
